A study of Mus musculus with 12 samples.

Results

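A patch worn without strain was compared with a film dressing alone on skin wounds of diabetic mice. The comparison takes 8 of the 12 RNA libraries of the study, those whose group label reads No Strain (3 libraries) or TD (5 libraries), and covers every gene of their count tables. TD stands for Tegaderm, a transparent adhesive film. Libraries of the third group, Strain (4 libraries), were made from wounds wearing a patch that stretched the skin by about 30%, and they are described here only to show whether the no-strain wounds differed from them. The model was fitted to all 12 libraries, so the strain libraries also bear on the low-count filter, the scaling and the estimate of spread behind each p-value. All 12 libraries share the genotype Lepr (db/db), the C57BLKS/J strain, male sex, an age of 12.5 weeks and dorsal wound tissue. A full-thickness wound was made with a 6 mm punch, the dressing was put on at once, and tissue was taken on day 10. No undressed wounds, unwounded skin or non-diabetic mice are among the libraries analysed here. The labels do not give the material of the patch or whether film covered it, nor do they say whether wounds came from separate mice, so the p-values below measure the spread between these libraries, which may be partly technical.

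The db/db mutation disables the long form of the leptin receptor, and the mice become obese and diabetic and close wounds slowly. In a healing wound, neutrophils and inflammatory monocytes enter first and are later replaced by macrophages with a repair profile, while keratinocytes migrate from the wound edge and hair follicles, and fibroblasts and new vessels fill the bed. In delayed diabetic wounds the inflammatory stage is known to last longer. Whole tissue was sequenced, so fewer cells of one type and less RNA per cell of that type cannot be told apart in any result below.

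Total counts were 22794802 to 24351297 per TD library and 22485894 to 23631327 per no-strain library. As a check of the tissue label, 22 collagen and matrix genes summed to between 65209 and 107434 CPM and 14 basal keratinocyte genes to between 5206 and 9101 CPM in the libraries of both groups. Skeletal muscle genes took 0.784% to 2.03% of counts in TD, 0.553% to 1.16% under the no-strain patch and 0.370% to 0.757% under the strain patch. Transcripts that the liver makes were also counted, and whether they were made in the wounds or carried over from other material was not tested. Summed over 27 hepatocyte genes, a list chosen after the values had been seen, they came to 140.0, 119, 3.79, 3.23 and 121 CPM in the TD libraries, 567, 544 and 498 CPM in the no-strain libraries and 125, 130.3, 266 and 318 CPM in the strain libraries. CPM is the count per 1000000 counts of the scaled library total. TD replicates 3 and 4 lay far below the other TD libraries, and all 3 no-strain libraries lay above every other library. Of the 27 genes, whose median log2 fold change was 2.79, 25 were called higher, where 9.35% of all genes rose. The sample titles also carry a number, which is 1, 2, 3, 4 and 6 in TD, 11, 12 and 13 under the no-strain patch and 7, 10, 14 and 15 under the strain patch, each in replicate order. The hepatocyte level also divided the strain group, where 14 and 15 lay above 7 and 10. A letter in the titles reads L, R, R, R and R in TD and R, L and L under the no-strain patch. It was thus unevenly divided between the groups, and what it stands for is not known here. The title number, the hepatocyte level and the treatment separate the no-strain wounds from TD in the same way and cannot be told apart here. The part of hepatocyte or muscle transcripts in any result was not tested, but counts are given below with each list as a covariate and without TD replicates 3 and 4, all for these 2 groups. TD replicates 3 and 4 were both under 0.25 of the lowest other TD library for 103 genes tested. Of these, 85 were called higher, where 9.35% of all genes were, and 0 lower, and 23 of the 85 are in the hepatocyte list. None of the called members of the 38 lists below had this split. The ratio was chosen after the values were seen and does not count a weaker split, so it was not a test of those lists.

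**Figure D1:**
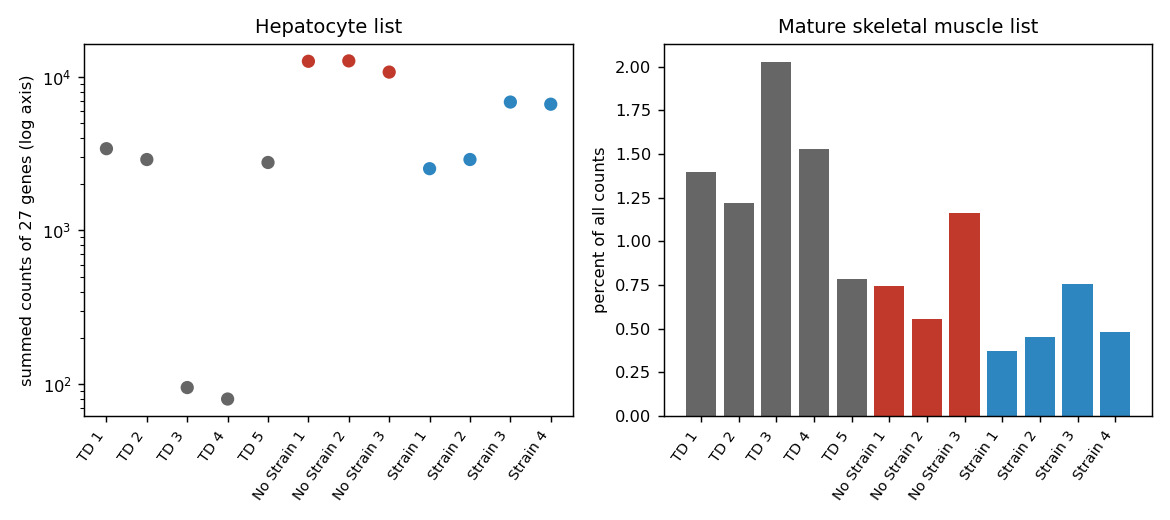
Each point in the left panel is 1 library, and the y axis is its summed count over 27 hepatocyte genes on a log axis. The right panel gives the percent of all counts from the mature skeletal muscle list as bars from 0. TD libraries are grey, no-strain libraries red and strain libraries blue. The 3 no-strain libraries have the highest hepatocyte counts, while their muscle share lies within or below the TD range.

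In edgeR's quasi-likelihood test with Benjamini-Hochberg adjustment, the adjusted p was below 0.05 for 3305 of 18618 genes (17.8%). They are called changed below. With the no-strain patch 1741 genes (9.35%) were higher and 1564 (8.40%) were lower, so 52.7% of calls were higher. Scaling by library totals alone gave 1257 higher and 2046 lower (38.1% higher) and moved the median of all genes by -0.065. A change of at least 1 log2 unit was reached by 1254 called genes (6.74%), of which 651 (3.50%) rose and 603 (3.24%) fell. For 4980 genes (26.7%) every no-strain library lay on one side of every TD library, with 2656 (14.3%) higher and 2324 (12.5%) lower. The median log2 fold change over all genes tested was 0.0045, and 50.7% of them had a log2 fold change above 0. Protein-coding genes made up most calls, with 1599 higher and 1431 lower of 15422 tested, while long intergenic noncoding RNAs had 33 higher and 44 lower of 630. Of the called genes 1053 (31.9%) share exon sequence with another annotated gene, which makes their counts uncertain; among those described below are Il1b, Il1a, Krt75, Zfp36, Bmp4, Gpd1, Gclm, Wnt11, Nos1, Pilra and Acss3. The count of called genes fell to 1072 with the muscle list as a covariate, to 1384 without TD replicates 3 and 4, and to 328 with the hepatocyte list as a covariate, whose values do not overlap between the groups. A fit to the 8 compared libraries alone called 3375 genes, 2880 of them among the 3305. Leaving out single libraries gave 1668 calls without no-strain replicate 1 and 1505 without no-strain replicate 3.

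**Figure D2:**
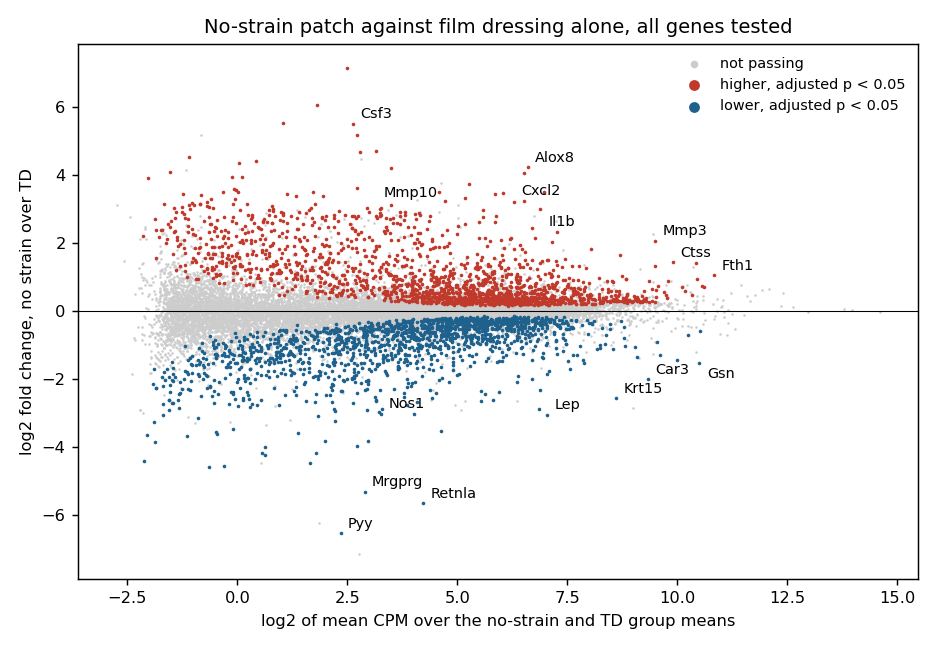
Each point is 1 of the 18618 genes tested, with the log2 of its mean CPM over both groups on the x axis and the log2 fold change of the no-strain patch over TD on the y axis. Red points (1741) were called higher and blue points (1564) lower. Retnla, Pyy and Mrgprg lie at the bottom, and Csf3 and Alox8 near the top.

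A set of 38 gene lists for the cell types and processes of wounded skin was read against these shares. The lists and their members were chosen with earlier results of these data known. A count set beside the share over all genes is therefore a description, not a test. The largest medians above 0 belonged to inflammatory cytokines and chemokines (2.45 log2 units) and neutrophil genes (2.45), and the lowest medians of lists with more than 3 genes to adipocyte genes (-1.46) and hair follicle genes (-1.38).

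**Figure D3:**
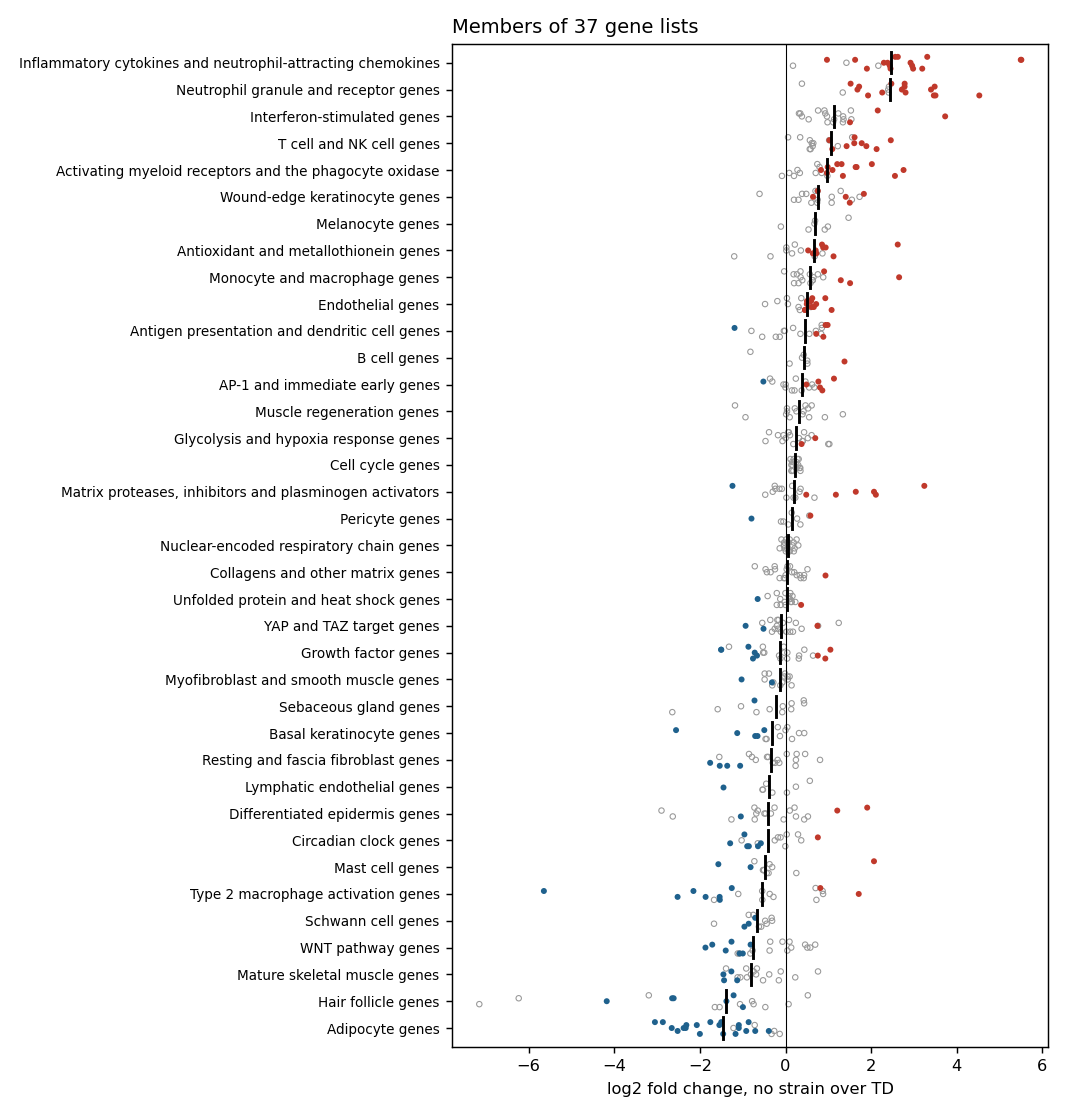
Each point is 1 gene of 37 lists (the resistin family is left out), placed by its log2 fold change of the no-strain patch over TD on the x axis, with 1 list per line. Filled red and blue points were called higher and lower, open grey points did not pass, and black bars mark list medians. Lists run from the cytokines at the top (median 2.45) to the adipocyte genes at the bottom (median -1.46).

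Genes of neutrophils and of the signals that draw them in were higher under the no-strain patch. Among 19 tested inflammatory cytokines and chemokines, 16 were called higher and none lower, and among 20 neutrophil granule and receptor genes 15 were called higher and none lower, where 9.35% of all genes rose. Il1b (ENSMUSG00000027398, chr2:129364570-129371139, GRCm38), which encodes interleukin-1 beta, a leading inflammatory cytokine, measured 25.4, 35.9, 34.6, 19.9 and 16.2 CPM in TD and 90.8, 265 and 270.1 CPM under the no-strain patch. All 3 no-strain libraries lay above all 5 TD libraries, and the lowest of them, replicate 1, was still more than the highest TD library (log2 fold change 2.98 ± 0.48 (SE), adjusted p = 0.00377). This gene overlaps Il1bos on the opposite strand, and the strand setting of the counting is not given in the sources used here. Il1a, the related cytokine stored in keratinocytes and released on injury, measured 5.59, 3.49, 3.71, 3.63 and 2.46 CPM in TD and 25.2, 23.7 and 18.2 CPM under the no-strain patch, with tight values in both groups and no overlap (log2 fold change 2.56 ± 0.24 (SE), adjusted p = 0.000439).

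Csf3 (chr11:98701263-98703629), the growth factor that drives neutrophil production, was nearly absent in TD. It measured 0.699, 0.123, 0.239, 0.202 and 0.0438 CPM in TD and 4.19, 8.37 and 23.8 CPM under the no-strain patch (log2 fold change 5.50 ± 0.73 (SE), adjusted p = 0.00228). The floor of 3 counts is 0.133 CPM in the smallest of these libraries, so the TD libraries sat near the limit of detection and the size of the fold is imprecise. Cxcl2, a chemokine that recruits neutrophils through the receptor Cxcr2, measured 15.6, 18.2, 21.9, 9.45 and 11.5 CPM in TD and 82.9, 210.3 and 128 CPM under the no-strain patch, again without overlap (log2 fold change 3.19 ± 0.46 (SE), adjusted p = 0.00273). The receptor itself measured 13.8, 13.6, 8.01, 10.9 and 8.51 CPM in TD and 32.1, 44.1 and 81.7 CPM under the no-strain patch (log2 fold change 2.26 ± 0.30 (SE), adjusted p = 0.00228). The chemokine and its receptor were thus both higher in every no-strain library than in every TD library.

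Granule and receptor genes of neutrophils showed the same direction. Mmp8, the neutrophil collagenase, measured 3.13, 3.57, 7.02, 3.19 and 2.72 CPM in TD and 17.4, 66.4 and 48.5 CPM under the no-strain patch, a log2 fold change of 3.48 ± 0.39 (SE), adjusted p = 0.00111. No-strain replicate 1 was the lowest of its group for Mmp8, Cxcl2, Il1b and Cxcr2, yet above every TD library for each. Fpr2, a receptor for bacterial formyl peptides that shares exon sequence with Fpr3, rose by 2.78 ± 0.42 log2 units (adjusted p = 0.00323). S100a8 and S100a9, the abundant calcium-binding proteins of neutrophils, had log2 fold changes of 2.40 ± 0.79 and 2.42 ± 0.78 but did not pass (adjusted p = 0.0573 and 0.052); they are named here after their values were seen. S100a8 measured 673, 199, 138, 157 and 182 CPM in TD and 2124, 639 and 1509 CPM under the no-strain patch, so a single TD library overlapped the no-strain range. The neutrophil list had 12 members called with the muscle covariate, 12 without TD replicates 3 and 4 and 4 with the hepatocyte covariate, and the cytokine list had 8, 11 and 2 in the same order.

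Cxcl1, Cxcl2 and Cxcl3 are neighbouring chemokine genes of related sequence on chromosome 5, all 3 called higher, and their promoters are shown because they share a match to the motif of NF-kB, a transcription factor family of inflammatory signalling. The search took GGGA and TTCC with any 2 bases between them, on both strands, in the 300 bases from 250 before to 50 after each gene start (RefSeq, GRCm38.p6). A promoter sequence was matched for 13 cytokine list genes, of which 4 held a match (Cxcl1, Cxcl2, Cxcl3 and Il6), against 1.47% of 32851 promoters. Here and for the motifs below, lists were counted by gene and the share over all promoters by promoter, so the units differ. Capitals mark the overlapping matches on both strands, and the windows, on the plus strand, are chr5:90891134-90891223, chr5:90903762-90903851 and chr5:90785988-90786077.
Cxcl1: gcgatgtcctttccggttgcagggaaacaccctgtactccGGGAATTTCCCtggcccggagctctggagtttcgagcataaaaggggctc
Cxcl2: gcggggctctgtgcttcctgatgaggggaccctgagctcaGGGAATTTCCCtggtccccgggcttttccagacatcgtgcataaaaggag
Cxcl3: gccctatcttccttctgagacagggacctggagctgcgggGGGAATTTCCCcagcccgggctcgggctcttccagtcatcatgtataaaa
The match begins 71, 97 and 73 bases before the gene start in Cxcl1, Cxcl2 and Cxcl3. A match describes the letters only and is no evidence of binding. Mean levels were 6.57 CPM in TD and 65.4 CPM under the no-strain patch for Cxcl1 (log2 fold change 3.31 ± 0.54 (SE), adjusted p = 0.00393), and 11.0 and 85.6 CPM for Cxcl3 (log2 fold change 2.96 ± 0.66 (SE), adjusted p = 0.013). Both were chosen for their place beside Cxcl2 after their values were seen, as was Il6.

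Retnla had the smallest p of all genes tested, and it fell. Retnla (ENSMUSG00000061100, chr16:48842551-48844461) encodes RELM-alpha, a secreted protein made by macrophages under interleukin-4 and interleukin-13 and also by adipose tissue. It measured 32.6, 41.3, 34.1, 28.8 and 47.0 CPM in TD and 1.04, 0.772 and 0.372 CPM under the no-strain patch. Every TD library had at least 28.8 CPM and every no-strain library at most 1.04 CPM (log2 fold change -5.65 ± 0.30 (SE), adjusted p = 8.63e-06). Its strain-patch libraries measured 1.84, 1.40, 1.36 and 1.15 CPM, also far below TD. The call held under each of the 20 alternatives in which it was followed, the muscle and hepatocyte covariates included.

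The genes of type 2 (interleukin-4 driven) macrophage activation divided. Of 19 tested, Retnla included, 7 were called lower and 2 higher, with a median log2 fold change of -0.54, where 8.40% of all genes fell and 9.35% rose. Ccl24, an eosinophil-attracting chemokine, measured 4.81, 12.6, 6.26, 4.72 and 7.89 CPM in TD and 0.990, 1.76 and 2.14 CPM under the no-strain patch, with no overlap (log2 fold change -2.15 ± 0.39 (SE), adjusted p = 0.00594). Chil3, a chitinase-like protein of the same macrophage profile, went the other way and measured 7.45, 16.7, 16.9, 17.8 and 8.29 CPM in TD and 37.0, 25.3 and 69.9 CPM under the no-strain patch (log2 fold change 1.71 ± 0.38 (SE), adjusted p = 0.0137). Il4ra, the receptor subunit for interleukin-4 and interleukin-13, rose by 0.81 ± 0.19 log2 units (adjusted p = 0.0148). Arg1 and Mrc1, often used to mark such macrophages, had log2 fold changes of 0.72 ± 0.39 and -0.28 ± 0.29 and did not pass (adjusted p = 0.227 and 0.528); they are named after their values were seen. The lower count was 3 with the muscle covariate, 3 without TD replicates 3 and 4, 2 with the hepatocyte covariate and 2 without no-strain replicate 1 or 3.

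The resistin family showed opposite changes among relatives. Retnlg, expressed in neutrophils and their precursors, measured 2.84, 3.74, 2.19, 1.57 and 1.71 CPM in TD and 16.1, 10.6 and 24.0 CPM under the no-strain patch, without overlap (log2 fold change 2.81 ± 0.36 (SE), adjusted p = 0.0022). Retn, the adipocyte hormone resistin, measured 35.7, 11.2, 38.4, 22.4 and 10.7 CPM in TD and 2.84, 5.49 and 4.04 CPM under the no-strain patch, lower in all no-strain libraries (log2 fold change -2.52 ± 0.48 (SE), adjusted p = 0.0071). Retnlb had too few counts to be tested. The promoter windows of the 2 neighbouring genes Retnla (chr16:48842424-48842513) and Retnlg (chr16:48872496-48872585), plus strand, are shown because the genes moved apart although 69 of 90 bases (76.7%) are the same at the same place. Capitals mark a match to TTC and GAA with any 4 bases between them, the palindrome bound by STAT factors, which both strands share and which 6.95% of all promoters hold.
Retnla: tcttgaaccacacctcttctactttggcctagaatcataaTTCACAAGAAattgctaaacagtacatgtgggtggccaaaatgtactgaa
Retnlg: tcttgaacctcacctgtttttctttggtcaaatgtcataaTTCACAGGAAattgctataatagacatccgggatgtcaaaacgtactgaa
The match begins 145 bases before the gene start in Retnla and 72 in Retnlg, which depends on where the table sets each start.

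Some receptors by which myeloid cells are activated rose as well. Of 22 such genes, with the subunits of the phagocyte oxidase, 12 were called higher and none lower, where 9.35% of all genes rose. Their median was 0.97 log2 units. Cd300lf, a lipid-sensing receptor of myeloid cells, measured 13.6, 15.4, 10.5, 11.7 and 10.8 CPM in TD and 65.2, 75.9 and 111 CPM under the no-strain patch (log2 fold change 2.76 ± 0.26 (SE), adjusted p = 0.000439). Fcgr4, a receptor for IgG, measured 5.47, 12.2, 13.0, 9.77 and 12.3 CPM in TD and 65.2, 56.1 and 65.1 CPM under the no-strain patch (log2 fold change 2.56 ± 0.45 (SE), adjusted p = 0.00511). Neither gene's groups overlapped. Fcer1g, the signalling chain of such receptors, and Nlrp3, the sensor of the inflammasome that activates interleukin-1 beta, rose by 1.10 ± 0.20 and 2.02 ± 0.35 log2 units. The list had 3 calls with the muscle covariate, 7 without TD replicates 3 and 4, 1 with the hepatocyte covariate and 7 without no-strain replicate 3.

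Of 19 monocyte and macrophage genes 4 were called higher, with a median of 0.58, where 9.35% of all genes rose. Ly6c2, a marker of newly arrived monocytes, measured 4.28, 7.11, 7.81, 4.48 and 4.21 CPM in TD and 51.3, 29.6 and 24.7 CPM under the no-strain patch, without overlap (log2 fold change 2.65 ± 0.55 (SE), adjusted p = 0.0103). Ccr2, the chemokine receptor by which these cells leave the blood, rose by 0.90 ± 0.25 log2 units, Cd14 by 1.51 ± 0.40 and Ms4a7 by 1.29 ± 0.25. The count was 2 with the muscle covariate (Ly6c2 and Ms4a7), 1 without TD replicates 3 and 4 (Ms4a7), 0 with the hepatocyte covariate and 2 without no-strain replicate 3 or without TD replicate 1. Adgre1, which encodes the macrophage marker F4/80, measured 68.2, 226, 161, 190.2 and 204 CPM in TD and 204, 161 and 222 CPM under the no-strain patch and did not pass (log2 fold change 0.20 ± 0.33 (SE), adjusted p = 0.716); it is named after its value was seen. The summed list overlapped between groups, from 3455 to 7913 CPM in TD and from 7253 to 12756 CPM under the no-strain patch.

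Lymphocyte genes rose in part. Of 20 T cell and natural killer cell genes, 9 were called higher and none lower (median 1.06), where 9.35% of all genes rose. The summed level ran from 80.8 to 122 CPM in TD and from 171 to 224 CPM under the no-strain patch. Gzmb, a protease of killer cells, measured 1.73, 2.18, 2.63, 2.91 and 2.59 CPM in TD and 14.3, 10.5 and 6.83 CPM under the no-strain patch (log2 fold change 2.13 ± 0.37 (SE), adjusted p = 0.00477). Cd4, the coreceptor of helper T cells, rose by 1.43 ± 0.30 log2 units, Il2rb, a chain of the interleukin-2 receptor, by 1.61 ± 0.29, and Trdc, the constant part of the gamma-delta T cell receptor, by 1.61 ± 0.33. The count was 3 with the muscle covariate, 4 without TD replicates 3 and 4, 4 without no-strain replicate 1 and 1 with the hepatocyte covariate, and the call of Gzmb held in each. Of 7 B cell genes only Cd22 was called (log2 fold change 1.37 ± 0.30 (SE), adjusted p = 0.0116).

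Genes of antigen presentation gave 4 higher and 1 lower of 18, where 9.35% of all genes rose and 8.40% fell, and 13 did not pass. The class II chains H2-Aa and H2-Ab1 rose by 0.94 ± 0.25 and 0.88 ± 0.26 log2 units, and Irf8, a transcription factor of dendritic cells and monocytes, by 0.98 ± 0.23. Cd209a, a lectin of monocyte-derived dendritic cells, fell (log2 fold change -1.19 ± 0.31 (SE), adjusted p = 0.0236). No member stayed called with the hepatocyte covariate, without TD replicates 3 and 4, or without no-strain replicate 1, and only 1 with the muscle covariate. Among 20 interferon-stimulated genes all log2 fold changes were above 0 (median 1.12), where 50.7% of all genes were, yet only Cxcl10, Gbp2 and Gbp3 passed. Cxcl10, a chemokine for activated T cells, measured 5.18, 4.85, 6.66, 6.54 and 3.68 CPM in TD and 77.7, 124 and 12.8 CPM under the no-strain patch, and no-strain replicate 3 was the lowest of its group but above TD (log2 fold change 3.73 ± 0.82 (SE), adjusted p = 0.0128). This gene lies opposite Art3, and none of the 3 calls remained with either covariate or without TD replicates 3 and 4.

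Mast cell genes gave 1 higher and 2 lower of 12, where 17.8% of all genes were called. Hdc, the enzyme that makes histamine, which neutrophils and other myeloid cells also express, measured 16.9, 24.6, 27.4, 18.9 and 14.6 CPM in TD and 50.6, 107 and 100.3 CPM under the no-strain patch, all no-strain values being higher (log2 fold change 2.07 ± 0.28 (SE), adjusted p = 0.00249). The mast cell receptors Mrgprb1 and Mrgprb2 fell, with log2 fold changes of -0.82 ± 0.22 and -1.57 ± 0.33. Both of these calls were lost with either covariate and without TD replicates 3 and 4, and that of Mrgprb1 under 10 of 20 alternatives in all, while the call of Hdc held in each. The summed mast cell level overlapped between the groups (288 to 565 CPM in TD, 347 to 441 CPM under the no-strain patch).

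The epidermis showed a divided picture. Of 20 genes that keratinocytes raise at a wound edge, 5 were called higher and none lower (median 0.75), where 9.35% of all genes rose. Krt6b, a keratin of activated keratinocytes that overlaps Gm44383 on the opposite strand, measured 987, 644, 631, 699 and 782 CPM in TD and 3285, 1059 and 1617 CPM under the no-strain patch, with replicate 1 the highest (log2 fold change 1.41 ± 0.39 (SE), adjusted p = 0.0306). Stfa3, a stefin of inflamed skin, rose by 1.83 ± 0.53 log2 units, Areg, a ligand of the epidermal growth factor receptor, by 1.50 ± 0.39, and Plaur, the receptor of urokinase, by 0.75 ± 0.22. No member stayed called with either covariate or without TD replicates 3 and 4, and none without TD replicate 4 or no-strain replicate 3 alone.

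Basal keratinocyte genes pointed down where they passed, with 5 of 14 lower and none higher, against 8.40% of all genes lower. Krt15, a keratin of basal cells and of hair follicle stem cells, measured 629, 429, 1186, 635 and 483 CPM in TD and 38.8, 270.3 and 33.4 CPM under the no-strain patch, with no overlap but a wide spread (log2 fold change -2.56 ± 0.77 (SE), adjusted p = 0.0405). Col17a1 and Itgb4, parts of the hemidesmosomes that anchor the epidermis, fell, with log2 fold changes of -1.13 ± 0.29 and -0.65 ± 0.14, as did Dst (-0.50 ± 0.13), a linker between them and keratin filaments. Krt5 and Krt14, the main basal keratins, did not pass, with log2 fold changes of -0.18 ± 0.27 and 0.44 ± 0.30 (named after their values were seen). Of 20 differentiation genes, 2 were higher and 1 lower: Tgm1 and Tgm3, which cross-link the cornified envelope, rose by 1.21 ± 0.38 and 1.91 ± 0.53 log2 units, and Sbsn, suprabasin, fell (log2 fold change -1.04 ± 0.25). These 3 of 20 stand beside 17.8% of all genes, and none of the 3 calls was kept with either covariate or without TD replicates 3 and 4. Of 20 alternatives, 14 ended the call of Tgm1, library totals alone and limma-voom among them, and 9 that of Tgm3.

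Of 17 hair follicle genes tested 6 were called lower and none higher (median -1.38), where 8.40% of all genes fell. Krt75, a keratin of the follicle's companion layer, measured 11.1, 10.2, 31.3, 13.4 and 10.3 CPM in TD and 1.17, 4.33 and 1.77 CPM under the no-strain patch (log2 fold change -2.65 ± 0.64 (SE), adjusted p = 0.0179). Krt73, an inner root sheath keratin, measured 2.72, 6.08, 0.917, 3.55 and 0.570 CPM in TD and 0, 0.386 and 0.0465 CPM under the no-strain patch (log2 fold change -4.18 ± 1.13 (SE), adjusted p = 0.028), and with 1 no-strain library at 0 the size of this fold is imprecise. S100a3, a calcium-binding protein of the hair cuticle, had a log2 fold change of -2.61 ± 0.68. Sox9, a transcription factor of follicle stem cells, measured 38.3, 26.6, 45.2, 40.5 and 24.7 CPM in TD and 16.4, 21.8 and 14.6 CPM under the no-strain patch (log2 fold change -0.99 ± 0.23 (SE), adjusted p = 0.015), and the groups did not overlap for Krt75, Krt73 or Sox9. The summed list ran from 95.9 to 290.2 CPM in TD and from 55.6 to 81.9 CPM under the no-strain patch. As for the basal keratinocyte list, no member stayed called with either covariate or without TD replicates 3 and 4, and 1 member of each list was called without no-strain replicate 1. In the sebaceous gland list 1 of 12 genes was called, where 17.8% of all genes were. It was the fatty acid desaturase relative Fads3 (log2 fold change -0.75 ± 0.16 (SE), adjusted p = 0.0124).

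Adipocyte genes were lower under the no-strain patch. Of 25 genes, 20 were called lower, none was higher, and all 25 had a log2 fold change under 0 (median -1.46), where 8.40% of all genes fell. The groups did not overlap for 17 of them, against 12.5% of all genes in this direction. Lep (ENSMUSG00000059201, chr6:29060220-29073877) encodes leptin, the adipocyte hormone whose receptor these mice lack in working form. It measured 293, 179.8, 345, 259 and 99.7 CPM in TD and 20.9, 37.8 and 26.3 CPM under the no-strain patch. The lowest TD library, replicate 5, was above the highest no-strain library (log2 fold change -3.05 ± 0.42 (SE), adjusted p = 0.00249). The strain-patch libraries measured 89.1, 61.9, 78.7 and 41.7 CPM for Lep, between the other groups in mean.

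Proteins of the lipid droplet and of fat synthesis followed. Cidec, which enlarges lipid droplets, measured 242, 174, 262, 234 and 104 CPM in TD and 24.5, 37.7 and 21.4 CPM under the no-strain patch (log2 fold change -2.87 ± 0.37 (SE), adjusted p = 0.0022). Gpd1, which supplies the glycerol backbone of triglycerides, measured 142, 108, 167, 169.8 and 71.2 CPM in TD and 35.9, 32.5 and 25.5 CPM under the no-strain patch (log2 fold change -2.07 ± 0.29 (SE), adjusted p = 0.00262). Aqp7, the glycerol channel of adipocytes, measured 17.1, 10.5, 22.2, 17.6 and 11.4 CPM in TD and 5.27, 4.59 and 4.14 CPM under the no-strain patch (log2 fold change -1.76 ± 0.26 (SE), adjusted p = 0.0027). For all 3 genes the groups were apart. Car3, a carbonic anhydrase of fat and muscle, measured 1042, 667, 1580.5, 1271 and 623 CPM in TD and 152, 299.6 and 325 CPM under the no-strain patch (log2 fold change -2.00 ± 0.40 (SE), adjusted p = 0.0085). Pparg and Cebpa, the transcription factors that drive fat cell formation, did not pass, with log2 fold changes of -0.33 ± 0.23 and -0.26 ± 0.14 (named after their values were seen). The count of called adipocyte genes was 6 with the muscle covariate, 11 without TD replicates 3 and 4, 4 with the hepatocyte covariate, 13 without no-strain replicate 1 and 11 without no-strain replicate 3, while Lep, Cidec, Gpd1 and Aqp7 stayed called in each.

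The Lep promoter is shown because it alone among the 16 adipocyte genes in the promoter table holds TTGCGCAA, the palindrome of C/EBP factors, which 0.183% of all promoters hold. The window is chr6:29060125-29060214 on the plus strand, and the motif, in capitals, begins 55 bases before the gene start.
Lep: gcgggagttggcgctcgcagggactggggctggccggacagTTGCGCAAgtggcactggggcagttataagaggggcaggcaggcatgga
No adipocyte promoter held AGGTCA repeated after 1 base, a PPAR motif found in 0.0396% of promoters on either strand, which says only that those letters are not in these windows.

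Of 22 collagen and matrix genes 1 was called, Tnc, a matrix protein of healing tissue, and the median log2 fold change was 0.037, or -0.024 with library totals alone. Tnc measured 1147, 856, 741, 1313 and 785 CPM in TD and 1078, 2177 and 2262 CPM under the no-strain patch, so 1 no-strain library lay inside the TD range (log2 fold change 0.93 ± 0.29 (SE), adjusted p = 0.0466). The call of Tnc was lost under 13 of 20 alternatives. Col1a1, the main chain of type I collagen, measured 16952, 16866, 11479.5, 16365 and 17944 CPM in TD and 15028, 19347 and 14323 CPM under the no-strain patch (log2 fold change 0.028 ± 0.22, named after its value was seen). Of 15 myofibroblast and smooth muscle genes 2 were called lower, Lmod1 (log2 fold change -1.03 ± 0.20) and Smtn (-0.32 ± 0.091), both actin-associated proteins of smooth muscle. Of 21 targets of the stretch-sensitive cofactors YAP and TAZ, 1 was higher (Gadd45a, 0.75 ± 0.14) and 2 were lower (Ptpn14, -0.93 ± 0.18, and Amotl1, -0.51 ± 0.12), so 3 of 21 were called, where 17.8% of all genes were.

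Of 20 genes of resting and fascia fibroblasts 4 were called lower and none higher, where 8.40% of all genes fell. Gsn (chr2:35256380-35307892), which encodes gelsolin, an actin-severing protein abundant in resting fibroblasts, measured 2014, 2217, 2404, 1892 and 2166 CPM in TD and 746, 739 and 726 CPM under the no-strain patch. Values within each group were close, and the groups were far apart (log2 fold change -1.54 ± 0.096 (SE), adjusted p = 2.60e-05). Scara5, a ferritin receptor, measured 204, 285, 137, 112 and 304 CPM in TD and 56.8, 60.5 and 67.2 CPM under the no-strain patch (log2 fold change -1.76 ± 0.40 (SE), adjusted p = 0.014). Dpp4 and Pi16, markers of fibroblast progenitors, fell, with log2 fold changes of -1.06 ± 0.31 and -1.36 ± 0.42, and for Pi16 the groups overlapped. TD replicates 3 and 4 were the lowest TD libraries for Scara5, Dpp4 and Pi16, and without these 2 libraries 6 members of the list were called lower, against 4 with them, while leaving out no-strain replicate 1 left 1.

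Of 20 matrix proteases and inhibitors 6 were higher and 1 was lower, where 9.35% of all genes rose and 8.40% fell. Mmp3 (chr9:7445822-7455975), stromelysin-1, measured 338, 271, 240.4, 284 and 264 CPM in TD and 585, 854 and 2078 CPM under the no-strain patch, highest in no-strain replicate 3 (log2 fold change 2.07 ± 0.35 (SE), adjusted p = 0.00434). Mmp10, stromelysin-2, which migrating keratinocytes secrete, measured 4.65, 4.35, 3.79, 5.81 and 6.44 CPM in TD and 8.82, 38.4 and 95.2 CPM under the no-strain patch (log2 fold change 3.24 ± 0.54 (SE), adjusted p = 0.0043). No-strain replicate 1 stood close to TD for Mmp10, and replicate 3 far above it. Slpi, a secreted inhibitor of neutrophil elastase, measured 43.2, 22.8, 24.4, 18.9 and 29.5 CPM in TD and 77.5, 131 and 151 CPM under the no-strain patch (log2 fold change 2.11 ± 0.32 (SE), adjusted p = 0.00331). Timp3, a matrix-bound inhibitor of metalloproteases lying opposite part of Syn3, was the one lower member and measured 173, 189, 158, 163 and 187 CPM in TD and 79.3, 83.7 and 58.0 CPM under the no-strain patch (log2 fold change -1.24 ± 0.16 (SE), adjusted p = 0.00224). The higher count was 3 with the muscle covariate, 4 without TD replicates 3 and 4 and 0 with the hepatocyte covariate, and Timp3 stayed called in each.

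Mmp3 and Mmp10 lie in 1 metalloprotease cluster on chromosome 9, and their promoters are shown because each holds TGACTCA or its reverse complement, the motif of AP-1, the factor that Fos and Jun proteins form. Of 13 protease genes with a promoter sequence 4 held it (Mmp3, Mmp10, Mmp12 and Mmp13), against 5.2% of all promoters. Mmp12 and Mmp13 belong to the same cluster, and the log2 fold change was 1.64 ± 0.36 for Mmp13, which was called, and -0.47 ± 0.37 for Mmp12, which was not (both named after their values were seen). The windows are chr9:7445732-7445821 and chr9:7502237-7502326, plus strand, with the motif in capitals.
Mmp3: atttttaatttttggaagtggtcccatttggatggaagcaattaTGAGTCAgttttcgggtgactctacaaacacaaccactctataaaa
Mmp10: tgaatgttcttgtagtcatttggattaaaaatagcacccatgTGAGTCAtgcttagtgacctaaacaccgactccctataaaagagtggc
The motif begins 46 bases before the gene start in Mmp3 and 63 bases before it in Mmp10.

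Of 20 endothelial genes 12 were called higher and none lower (median 0.50), where 9.35% of all genes rose. The groups did not overlap for 14, all higher, against 14.3% of all genes. Emcn, a sialomucin of capillaries and veins, measured 17.6, 14.8, 13.1, 15.4 and 18.4 CPM in TD and 26.8, 27.4 and 36.4 CPM under the no-strain patch (log2 fold change 0.93 ± 0.15 (SE), adjusted p = 0.00348). Cdh5, the cadherin of endothelial junctions, measured 114, 100.4, 106, 119 and 131 CPM in TD and 175, 167 and 199 CPM under the no-strain patch (log2 fold change 0.66 ± 0.12 (SE), adjusted p = 0.00517). Plvap, of fenestrated capillaries, and Robo4 rose by 0.72 ± 0.12 and 0.63 ± 0.11 log2 units. The summed list ran from 910.3 to 1107 CPM in TD and from 1254 to 1533 CPM under the no-strain patch, without overlap. The count was 6 with the muscle covariate, 6 without TD replicates 3 and 4, 5 without no-strain replicate 3 and 0 with the hepatocyte covariate.

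Among 9 pericyte genes Rgs5 rose (0.58 ± 0.15 log2 units) and Cspg4, the NG2 proteoglycan, fell, measuring 37.2, 35.2, 45.7, 41.5 and 37.5 CPM in TD and 21.5, 22.9 and 23.8 CPM under the no-strain patch (log2 fold change -0.80 ± 0.093 (SE), adjusted p = 0.00122). Among 8 lymphatic genes only Lyve1 was called, and 2 of 9 pericyte genes were, where 17.8% of all genes were. Lyve1, a hyaluronan receptor also found on some tissue macrophages, measured 78.5, 128, 65.4, 74.1 and 106 CPM in TD and 23.2, 25.7 and 49.3 CPM under the no-strain patch, lower in all no-strain libraries (log2 fold change -1.47 ± 0.31 (SE), adjusted p = 0.0102).

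Of 19 tested genes of mature fibres 4 were called lower (median -0.81), where 8.40% of all genes fell. Atp2a1, the calcium pump of fast fibres, which lies opposite part of Rabep2, measured 1537, 1338, 2224, 1459 and 912 CPM in TD and 591, 327 and 721 CPM under the no-strain patch (log2 fold change -1.45 ± 0.31 (SE), adjusted p = 0.0113), and Eno3, the muscle enolase, had a log2 fold change of -1.44 ± 0.27. Tnni2, a fast troponin, and Pvalb, the calcium buffer parvalbumin, were the other called members, at -1.13 ± 0.28 and -1.27 ± 0.36. None of 16 muscle regeneration genes was called. Myh3, embryonic myosin, had a log2 fold change of 1.34 ± 0.44 with overlapping groups (adjusted p = 0.0568). Of 12 Schwann cell genes 3 were lower, among them Cdh19 and Sox10 with log2 fold changes of -0.96 ± 0.20 and -0.86 ± 0.26. All 12 had a log2 fold change under 0, where 50.7% of all genes were above it. None of 7 melanocyte genes passed, Dct and Mitf having log2 fold changes of 0.54 ± 0.57 and -0.11 ± 0.11.

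Of 18 antioxidant and metallothionein genes 9 were called higher and none lower (median 0.66), where 9.35% of all genes rose. Slc7a11, the cystine importer that feeds glutathione synthesis, measured 21.8, 18.7, 16.3, 13.3 and 11.3 CPM in TD and 110.2, 106 and 85.2 CPM under the no-strain patch, without overlap (log2 fold change 2.62 ± 0.37 (SE), adjusted p = 0.00262). Gclm, the regulatory subunit of the enzyme that starts glutathione synthesis, measured 34.5, 35.0, 37.4, 44.7 and 40.7 CPM in TD and 77.4, 73.5 and 70.2 CPM under the no-strain patch (log2 fold change 0.94 ± 0.12 (SE), adjusted p = 0.00176). Prdx1, a peroxiredoxin, and Txnrd1, thioredoxin reductase, rose by 0.88 ± 0.13 and 0.70 ± 0.10 log2 units. Gsr and Fth1, which are not in the list, act in the same processes and rank among the smallest p and the largest rises. Gsr, glutathione reductase, measured 70.7, 70.6, 60.1, 73.9 and 59.6 CPM in TD and 141, 153 and 179 CPM under the no-strain patch (log2 fold change 1.23 ± 0.14 (SE), adjusted p = 0.00089). Fth1, the heavy chain of the iron store ferritin, measured 1129, 1169.8, 1326, 1103 and 1271 CPM in TD and 2139, 2355 and 2941 CPM under the no-strain patch (log2 fold change 1.05 ± 0.14 (SE), adjusted p = 0.00228). All 3 no-strain libraries exceeded all TD libraries for both. The list count was 6 with the muscle covariate, 6 without TD replicates 3 and 4 and 3 with the hepatocyte covariate, and Gclm, Prdx1, Txnrd1, Gsr and Fth1 stayed called in each.

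Immediate early genes, which cells switch on within minutes of a stimulus, gave 5 higher and 1 lower of 19. The shares over all genes were 9.35% higher and 8.40% lower. Junb, an AP-1 subunit that overlaps Prdx2 on the opposite strand, measured 136, 138, 138, 127 and 132 CPM in TD and 211, 235 and 259 CPM under the no-strain patch (log2 fold change 0.81 ± 0.12 (SE), adjusted p = 0.00305). Zfp36, which shortens the life of cytokine messages, measured 60.0, 73.2, 75.9, 66.9 and 65.3 CPM in TD and 107, 115 and 127 CPM under the no-strain patch (log2 fold change 0.77 ± 0.13 (SE), adjusted p = 0.00458). Neither overlapped. Fosl2 and Ier3 rose by 0.49 ± 0.089 and 1.13 ± 0.23 log2 units. None of 20 nuclear-encoded respiratory chain genes and none of 20 cell cycle genes was called. All 20 cell cycle genes had a log2 fold change above 0 (median 0.22), where 50.7% of all genes did. Mki67 and Pcna, expressed in dividing cells, had log2 fold changes of 0.25 ± 0.14 and 0.28 ± 0.096, and the respiratory chain subunits Atp5a1 and Atp5b had 0.007 ± 0.092 and -0.021 ± 0.11. Of 20 glycolysis and hypoxia genes 2 were higher, where 9.35% of all genes rose. They were Ero1l (0.70 ± 0.16 log2 units) and Pgam1 (0.38 ± 0.10). Of 18 unfolded protein and heat shock genes Atf4 rose by 0.36 ± 0.067 and Hspa1a, a heat shock protein, fell (log2 fold change -0.65 ± 0.13). These 2 of 18 stand beside 17.8% of all genes called.

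Of 23 growth factor genes 3 were called higher and 6 lower, where 9.35% and 8.40% of all genes were, and 14 did not pass. Fgf18, a fibroblast growth factor of the follicle, measured 6.66, 4.60, 9.69, 6.50 and 5.92 CPM in TD and 1.94, 1.80 and 3.35 CPM under the no-strain patch (log2 fold change -1.50 ± 0.34 (SE), adjusted p = 0.0132), and Bmp4 measured 8.10, 4.56, 8.77, 6.62 and 6.27 CPM in TD and 1.44, 3.60 and 2.18 CPM under the no-strain patch (log2 fold change -1.51 ± 0.35 (SE), adjusted p = 0.0162). Neither overlapped. Fgf1 had a log2 fold change of -0.67 ± 0.18, while Angpt2, a destabilizer of vessels, rose by 0.75 ± 0.18. The growth factor calls were 0 higher and 2 lower with the muscle covariate, without TD replicates 3 and 4 or without no-strain replicate 3, and 0 higher and 1 lower with the hepatocyte covariate. The WNT pathway, which drives hair follicle growth and holds back fat formation, had 7 of 21 genes lower and none higher. Wnt10b measured 15.4, 23.8, 12.0, 11.2 and 20.5 CPM in TD and 3.78, 5.06 and 4.74 CPM under the no-strain patch (log2 fold change -1.87 ± 0.32 (SE), adjusted p = 0.00448). Wnt11 measured 13.9, 14.1, 10.3, 10.5 and 12.2 CPM in TD and 2.75, 3.86 and 4.55 CPM under the no-strain patch (log2 fold change -1.71 ± 0.21 (SE), adjusted p = 0.0017). Both ligands were lower in every no-strain library. Dkk2, a secreted antagonist, and Fzd4, a receptor, fell, with log2 fold changes of -1.40 ± 0.22 and -0.82 ± 0.12. The WNT count was 5 with the muscle covariate, 5 without TD replicates 3 and 4 and 3 with the hepatocyte covariate.

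Clock genes gave 6 lower and 1 higher of 16, where 8.40% of all genes fell and 9.35% rose. Dbp, a rhythmic output gene that overlaps Sphk2 on the opposite strand, measured 19.0, 18.7, 25.8, 17.5 and 19.1 CPM in TD and 6.71, 9.95 and 7.81 CPM under the no-strain patch (log2 fold change -1.29 ± 0.27 (SE), adjusted p = 0.0105). Per3 measured 26.0, 24.4, 33.7, 22.4 and 22.4 CPM in TD and 13.6, 15.8 and 10.3 CPM under the no-strain patch (log2 fold change -0.96 ± 0.20 (SE), adjusted p = 0.00911). Tef and Cry2 fell, with log2 fold changes of -0.86 ± 0.17 and -0.64 ± 0.11, and Arntl and Clock, the activators of the cycle, did not pass, with log2 fold changes of -0.0037 ± 0.12 and -0.12 ± 0.067 (named after their values were seen). The labels give no hour of collection. Of 15 clock gene promoters 5 held CACGTG, the E-box to which the activators bind, against 7.15% of all promoters, and none held TTACGTAA, the D-box (0.119%). The lower count was 1 with the muscle covariate, 4 without TD replicates 3 and 4 and 0 with the hepatocyte covariate.

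**Figure D4:**
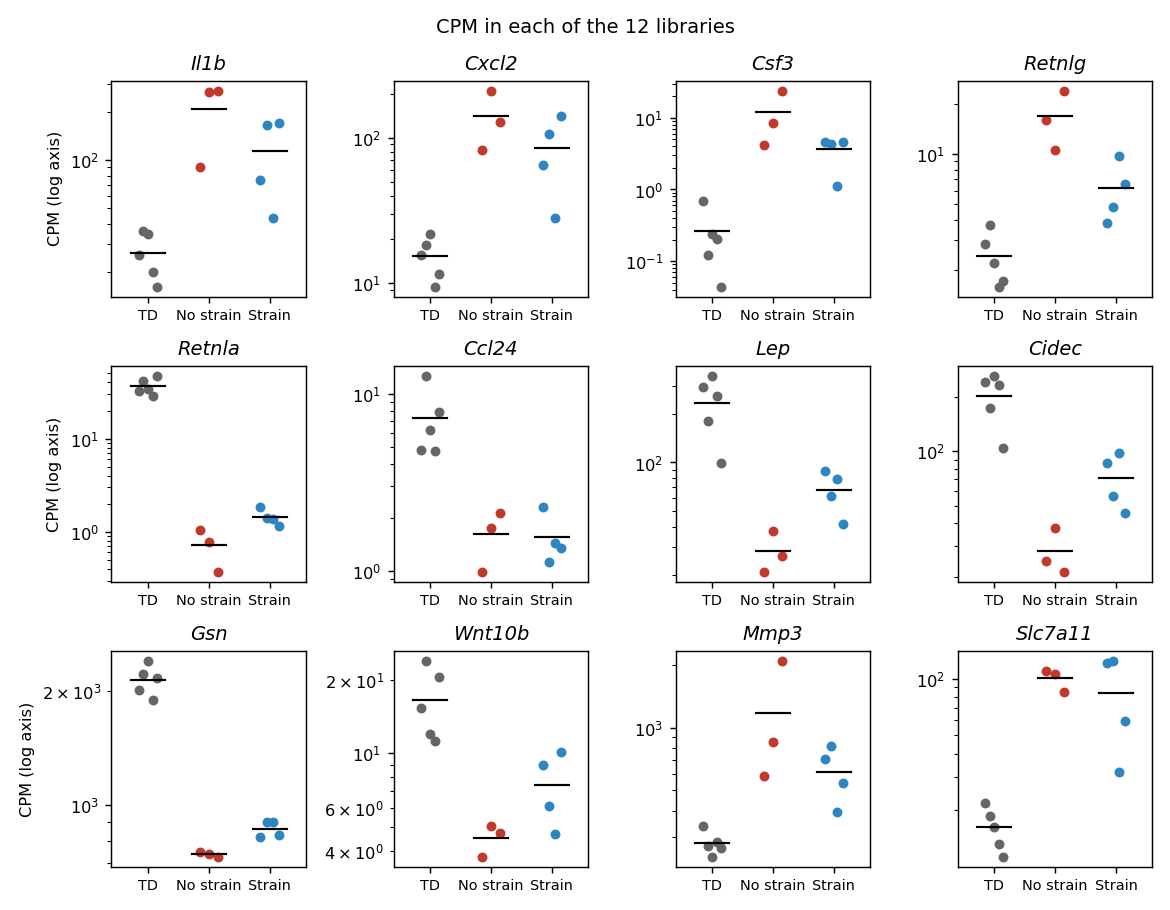
Each panel shows 1 gene, with CPM on a log axis, 1 point per library and a bar at the group mean, for TD (grey, 5 libraries), no strain (red, 3) and strain (blue, 4). For all 12 genes the no-strain points lie wholly above or wholly below the TD points, for instance Retnla with at least 28.8 CPM in TD and at most 1.04 CPM under the no-strain patch.

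Of the genes chosen for the smallest p, most stood outside the lists. Among the higher genes, Cemip, a hyaluronan-degrading protein of fibroblasts, measured 16.3, 20.1, 14.5, 24.4 and 16.0 CPM in TD and 77.9, 83.6 and 80.9 CPM under the no-strain patch (log2 fold change 2.14 ± 0.22 (SE), adjusted p = 0.000668). Upp1, uridine phosphorylase, measured 8.23, 5.51, 6.62, 6.10 and 5.96 CPM in TD and 20.2, 32.8 and 24.6 CPM under the no-strain patch (log2 fold change 2.00 ± 0.20 (SE), adjusted p = 0.000571). Il18rap, a subunit of the interleukin-18 receptor, measured 8.56, 7.97, 6.62, 6.66 and 7.63 CPM in TD and 28.8, 26.8 and 32.8 CPM under the no-strain patch (log2 fold change 1.98 ± 0.22 (SE), adjusted p = 0.00101). In all 3 the groups were apart. The myeloid genes Mefv (pyrin), Tarm1, Lst1 and Pilra, and Parvg, an actin-linked adaptor of blood cells, rose by 2.41 ± 0.26, 2.31 ± 0.24, 1.63 ± 0.16, 1.76 ± 0.20 and 1.36 ± 0.16 log2 units.

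Among the lower genes with the smallest p, Ntrk2, the receptor of brain-derived neurotrophic factor, measured 50.6, 64.3, 53.9, 48.4 and 55.4 CPM in TD and 22.4, 20.6 and 23.3 CPM under the no-strain patch (log2 fold change -1.30 ± 0.12 (SE), adjusted p = 0.00037). Papln, a matrix protein of the ADAMTS-like kind, measured 8.80, 8.42, 10.8, 7.15 and 9.95 CPM in TD and 2.48, 2.62 and 1.67 CPM under the no-strain patch (log2 fold change -2.00 ± 0.18 (SE), adjusted p = 0.000375). Oxtr, the oxytocin receptor, measured 29.7, 21.9, 29.9, 25.7 and 18.2 CPM in TD and 2.25, 5.19 and 3.58 CPM under the no-strain patch (log2 fold change -2.77 ± 0.29 (SE), adjusted p = 0.000759). The no-strain values of these 3 were all under the lowest TD value. Nos1, neuronal nitric oxide synthase, measured 16.7, 12.2, 26.5, 19.3 and 11.3 CPM in TD and 2.25, 2.75 and 1.35 CPM under the no-strain patch (log2 fold change -3.02 ± 0.34 (SE), adjusted p = 0.00104), and Neu2, a sialidase of muscle that overlaps Ngef on the opposite strand, measured 14.6, 10.2, 21.2, 13.0 and 9.21 CPM in TD and 1.62, 1.67 and 2.09 CPM under the no-strain patch (log2 fold change -2.92 ± 0.31 (SE), adjusted p = 0.00089). Fgf11, Mill2, Acss3, Slc1a5 and Ky fell, with log2 fold changes of -1.26 ± 0.11, -1.22 ± 0.13, -1.81 ± 0.20, -1.01 ± 0.12 and -2.13 ± 0.23, Ky being a muscle protein.

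The largest folds among genes with a mean of at least 5 CPM included genes near the floor in 1 group. Pyy, peptide YY, a hormone known from the gut, measured 5.80, 10.3, 14.2, 7.15 and 12.9 CPM in TD and 0.0450, 0.257 and 0 CPM under the no-strain patch (log2 fold change -6.53 ± 1.40 (SE), adjusted p = 0.0113), with 1 no-strain library at 0. Mrgprg, a receptor of the Mas-related family, measured 11.4, 15.9, 8.85, 3.96 and 32.5 CPM in TD and 0.720, 0.0429 and 0.325 CPM under the no-strain patch (log2 fold change -5.31 ± 1.02 (SE), adjusted p = 0.00745). Pyy was near the floor in all no-strain libraries and Mrgprg below it in 1, so both folds are imprecise. Mstn, the muscle growth inhibitor myostatin, measured 11.2, 15.7, 27.3, 9.33 and 9.56 CPM in TD and 1.80, 0.772 and 0.511 CPM under the no-strain patch (log2 fold change -3.82 ± 0.64 (SE), adjusted p = 0.00442), and the uncharacterized A530016L24Rik had a log2 fold change of -3.97 ± 0.53. In the other direction, Alox8, a lipoxygenase of inflamed skin, measured 31.4, 5.22, 3.51, 6.78 and 2.32 CPM in TD and 348, 76.0 and 129 CPM under the no-strain patch (log2 fold change 4.22 ± 1.08 (SE), adjusted p = 0.023). Slc26a4, the anion exchanger pendrin, measured 1.65, 0.370, 0.199, 0.202 and 0.877 CPM in TD and 24.5, 7.16 and 19.6 CPM under the no-strain patch (log2 fold change 4.69 ± 1.22 (SE), adjusted p = 0.0247). Il19, of the interleukin-10 family, measured 1.03, 0.0822, 0.0797, 0.283 and 0.263 CPM in TD and 25.8, 0.815 and 11.7 CPM under the no-strain patch, with no-strain replicate 2 inside the TD range (log2 fold change 5.18 ± 1.18 (SE), adjusted p = 0.0147). For Il19 2 TD libraries were below the floor, and for Slc26a4 2 were just above it, so these folds are imprecise as well. Ly6i and the interferon-inducible Gm4841 rose by 4.67 ± 0.74 and 4.19 ± 1.02 log2 units.

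In absolute level, the largest rises in mean CPM among called genes were those of Fth1, Krt6b, Mmp3, Tnc and Ctss, and the largest falls those of Gsn, Atp2a1, Car3, Igfbp5 and Ahnak. Ctss, cathepsin S, a lysosomal protease of antigen-presenting cells, measured 315, 603, 498, 507 and 646 CPM in TD and 1333, 1081 and 1763 CPM under the no-strain patch (log2 fold change 1.44 ± 0.28 (SE), adjusted p = 0.00767). Igfbp5, a binding protein of insulin-like growth factors, measured 948, 1445, 1013, 884 and 1249 CPM in TD and 476, 616 and 255 CPM under the no-strain patch (log2 fold change -1.30 ± 0.34 (SE), adjusted p = 0.0257), and Ahnak, a large scaffold protein, had a log2 fold change of -0.60 ± 0.094.

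Whether the strain patch differed from the no-strain patch in these genes was tested directly. None of the 18618 genes was called in edgeR's test of strain against no strain, with 1045 (5.61%) at an unadjusted p under 0.05. Among the 3305 genes called in no strain against TD, 501 (15.2%) were under that unadjusted p, and DESeq2 called 19 of the 3305. The set was chosen with the no-strain libraries, which both comparisons share, so this share is a description. The smallest adjusted p among the named genes was 0.402, for Papln and Myh8. Strain-patch values of Papln were 5.17, 4.77, 5.10 and 4.74 CPM, between the no-strain and TD values. For Mmp10 the strain libraries measured 9.89, 6.80, 6.00 and 11.9 CPM, nearer to TD, and for Slc7a11 they measured 120.4, 124, 31.8 and 59.5 CPM, a wide range that reaches the no-strain values. List medians for strain against TD, a comparison with the same TD libraries, were 2.01 for neutrophil genes, 1.54 for cytokines and chemokines, 0.49 for endothelial genes and -0.82 for adipocyte genes, beside 2.45, 2.45, 0.50 and -1.46 for no strain against TD. edgeR's test of the difference between the patches was past the threshold for none of these genes.

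Some lists with few calls lost part of them as well. Immediate early genes had 2 higher with either covariate and 3 without TD replicates 3 and 4, and none lower in these fits. Schwann cell genes had 1 lower with the muscle covariate, 0 with the hepatocyte covariate and 2 without TD replicates 3 and 4. Resting and fascia fibroblast genes had 3, 5 and 6 lower in the same order. The calls of glycolysis and sebaceous gland genes were lost in all 3 fits, and so was that of Rgs5 among the pericyte genes. Cd22 was called only in the last of the 3. The myofibroblast and smooth muscle list had 0, 0 and 1 lower, and Lyve1 lost its call with the hepatocyte covariate alone. YAP and TAZ targets had 2 higher and 0 lower, 1 and 0, and 1 and 1. Mature fibre genes had 0 lower with the hepatocyte covariate and 2 without TD replicates 3 and 4. Retnlg and Atf4 lost their calls with the hepatocyte covariate, and Retn and Hspa1a theirs with either covariate.

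Of the 141 named genes that were called, 82 passed with the muscle covariate, 92 without TD replicates 3 and 4, and 50 with the hepatocyte covariate. In every alternative fit that tested them 46 passed, not counting the test against a minimum change of 1 log2 unit. That test called 26 genes in all. Those 46 include Retnla, Lep, Cidec, Gpd1, Aqp7, Gsn, Wnt10b, Wnt11, Dkk2, Timp3, Cspg4, Ntrk2, Papln, Oxtr, Nos1 and Neu2 among the lower genes. Among the higher genes they include Il1a, Mmp8, Fpr2, Cd300lf, Gzmb, Hdc, Fth1, Gsr, Gclm, Prdx1, Txnrd1, Junb, Zfp36, Cemip and Upp1.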

How the data were processed

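Poly(A) RNA of 12 wound libraries (NEBNext Ultra RNA kit) was sequenced, with RIN above 7.8 in all, per the labels' protocols. The authors deposited whole-number read counts per gene, 1 file of 54232 Ensembl genes per library. Per the submitters' processing notes, bcl2fastq 2.17, FastQC, cutadapt, STAR, featureCounts, DESeq2 and GRCm38 were used; their settings, strand included, are not given in the sources used here. Symbols and positions came from GENCODE M21 (54165 genes matched).

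Genes with too few counts were removed (filterByExpr, minimum count 10, minimum total 15), counts were scaled by TMM, and a quasi-likelihood model with robust spread was fitted to all 12 libraries by group (edgeR 4.0.16, R 4.3.3, 9 residual degrees of freedom). Benjamini-Hochberg adjustment ran over all 18618 genes. SEs were derived from the log2 fold change and its F statistic. The floor of 3 counts covers counting error only. The fit was tested on simulated counts. DESeq2 1.42.0 and limma 3.58.1 served as alternatives.

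The members and lists were chosen with earlier results of these data known. Named genes were the 12 higher and 12 lower with the smallest p (at least 1 log2 unit, no overlap), the 5 largest rises and falls in mean CPM and in fold above 5 CPM, up to 4 called genes per list (the 2 most abundant where none was called), and the resistin family; others are said to be chosen after their values were seen. A gene that this rule names is not reported here. Promoter sequences are RefSeq's.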

Additional observations from a re-analysis of the deposited data

Results flagged for a closer look

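In 12 of 187 sets of 5 TD values, for named genes and for list means, 1 library stood apart from the other 4 by a gap test at the 95% level. Chance flags about 1 in 20, or 9.35 of 187. All values here are log2 CPM. TD replicate 3 was the highest of its group for Dbp (4.69, next 4.26), Gbp2 (6.01, next 5.18), Krt75 (4.97, next 3.76), Mmp8 (2.83, next 1.87), Sbsn (9.62, next 9.16) and the mean of the differentiated epidermis genes (7.61, next 7.28). The same library was the lowest for Sox10 (2.66, next 2.91) and for the mean of the collagen and matrix genes (10.55, next 11.0). TD replicate 1 was the lowest for Ahnak (10.6, next 10.8) and Mefv (2.24, next 2.71). TD replicate 4 was the lowest for Acss3 (1.75, next 1.98), and TD replicate 5 the highest for Plvap (6.89, next 6.75). For the 10 genes the no-strain libraries still lay wholly to one side of all TD libraries, except Sox10.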

How the results depend on the processing

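The 2963 values of named genes under alternatives leave out the test against a minimum change of 1 log2 unit. Of them 2500 kept direction and side of the threshold, 437 lost the call, 8 gained it and 18 changed sign. The cause was not tested. Called genes (3305, with 1741 higher and 1564 lower, and 1254 of at least 1 log2 unit) numbered 1072 with the muscle covariate (567 higher, 505 lower, 521 of at least 1 log2 unit) and 2145 with the title letter as a covariate (1147 higher, 998 lower). They numbered 328 with the hepatocyte covariate (117 higher, 211 lower, 202 of at least 1 log2 unit) and 1384 without TD replicates 3 and 4 (680 higher, 704 lower, 704 of at least 1 log2 unit), both chosen after seeing the data. A mean of at least 5 CPM, a stricter filter on low counts, left 568 of at least 1 log2 unit. A test against a minimum change of 1 log2 unit called 26. DESeq2 called 19 of the 3305 genes between the patches. Leaving out 1 library gave 1505 to 2907 calls, 788 to 1483 higher, 717 to 1424 lower and 753 to 1159 of at least 1 log2 unit, with the low ends without no-strain replicate 3.

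The sign changed only for genes that did not pass. Atp5a1 had -0.0596 with library totals alone, -0.0074 with at least 5 CPM, -0.0048 with the title letter and -0.0262 to 0.038 when single libraries were left out. Atp5b had 0.1475 with the hepatocyte covariate, 0.0605 with the muscle covariate, 0.0409 without TD replicates 3 and 4 and -0.0646 to 0.0237 without single libraries. Dct had -0.5438 with the muscle covariate and -0.7757 to 0.9631 without single libraries. Myh8 had -0.0348 with library totals alone, -0.0417 with limma-voom and -0.1555 to 0.2399 without single libraries. No paired analysis was run, because the labels pair no samples. The groups share no number in the sample titles, and what that number stands for is not known here. Counts near the floor of 3 (0.133 CPM) limit the folds of Csf3, Il19, Slc26a4, Ly6i, Krt73, S100a3, Pyy and Mrgprg.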

Other observations

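Differences between the groups also appeared in genes that interferon-gamma induces, a list of 23 written after its values had been seen and therefore given with no test of its own. By edgeR's test over all genes, 16 of the 23 were called higher and none lower, where 9.35% of all genes rose. The list median was 1.51 log2 units. Calls of this list with either covariate or without TD replicates 3 and 4 were not counted. The called interferon-stimulated genes described above kept no call in those fits. Cxcl9, a chemokine that interferon-gamma induces, measured 10.0, 8.79, 16.9, 10.5 and 6.09 CPM in TD and 255, 229 and 38.5 CPM under the no-strain patch (log2 fold change 4.05 ± 0.81 (SE), adjusted p = 0.00839). Cd274, which encodes the checkpoint ligand PD-L1, measured 23.6, 23.1, 47.8, 22.4 and 21.0 CPM in TD and 109.5, 179.9 and 75.1 CPM under the no-strain patch (log2 fold change 2.14 ± 0.41 (SE), adjusted p = 0.00748). Socs1, an inhibitor of cytokine signalling, measured 8.56, 6.82, 7.89, 6.26 and 7.67 CPM in TD and 25.7, 25.4 and 13.5 CPM under the no-strain patch (log2 fold change 1.53 ± 0.23 (SE), adjusted p = 0.00276). All 3 were lowest in no-strain replicate 3 within their group, and none overlapped TD. Over the whole list 13 of 23 genes were higher without overlap, against 14.3% of all genes. For Iigp1, another member, no-strain replicate 3 measured 72.5 CPM, below TD replicate 3 at 101 CPM. The class I genes H2-K1 and H2-D1, whose reads can be shared between near-identical copies, had log2 fold changes of 0.69 ± 0.20 and 0.70 ± 0.20. In the strain group Cxcl9 measured 16.2, 309.7, 113 and 58.8 CPM, the first library lying within the TD range.

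Cytosolic ribosomal protein genes, likewise chosen after the values were seen, differed by small amounts in 1 direction. Of 76 genes 38 were called higher and none lower, where 9.35% of all genes rose, with log2 fold changes between 0.12 and 0.41 (median 0.27). Their summed level was 35771, 32688, 32324, 29617 and 34246 CPM in the TD libraries and 41121, 37369 and 39009.9 CPM in the no-strain libraries, without overlap. The strain libraries were raised as well, at 40259, 41856, 37827 and 37197 CPM, with a median of 0.273 log2 units against TD. Calls of this list with either covariate, without TD replicates 3 and 4 or with library totals alone were not counted. Near-identical pseudogene copies make single members of this family uncertain.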
